A study of Oryza sativa Japonica Group with 12 samples.

Results

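The rows described here are those of the deposited table whose identifier starts with BAC or CAA, which are protein identifiers of the organelle genomes standing in place of the Os locus identifiers of the nuclear genes. There were 157 such rows among 35833, namely 50 BAC rows and 107 CAA rows. All 157 were listed at 0 in each of the 12 root libraries. The table therefore gave no level, no rank and no change between groups for any organelle gene, in either prefix.

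The libraries came from roots of Nipponbare rice seedlings, sequenced from the 3′ ends of polyadenylated RNA with the QuantSeq kit. At 13 days after transplanting, the leaves had received a spray of 300 µM piperonylic acid (PA) or a mock solution. PA is an inhibitor of the phenylpropanoid enzyme cinnamate 4-hydroxylase. Tween 20 at 0.1% is listed for the PA and the mock samples alike. The 4 groups were PA and mock roots at 6 h and PA and mock roots at 24 h after the spray, with 3 libraries in each and the roots of 4 plants pooled per library. The plants were 13 days past transplanting at 6 h and 14 days at 24 h. The series title also names inoculation with the root-knot nematode Meloidogyne graminicola and the source names speak of a second treatment, while the treatment protocol gives a single spray.

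Plant mitochondria and plastids keep genomes of their own, which encode part of the respiratory chain or of the photosynthetic apparatus together with part of the machinery that translates it. Most of their transcripts end in a stem-loop or a processed end without a stable poly(A) tail, and the short tails that are added to them lead to degradation. This is the reverse of nuclear messenger RNA, where the tail stabilises the molecule. Root cells hold mitochondria and non-green plastids, so both kinds of organelle are present in the tissue sampled.

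The BAC rows ran from BAC19853 to BAC19904. This span covers 52 consecutive numbers, of which BAC19856 and BAC19870 had no row in the table analysed here. The CAA rows ran from CAA33908 to CAA34015, a span of 108 numbers of which CAA33929 had no row. From general knowledge of these sequence records, and from no file used here, BAC numbers of this range belong to the mitochondrial genome of rice and CAA numbers of this range to its chloroplast genome. The RefSeq gene table of assembly ASM3414082v1 listed 53 protein-coding mitochondrial and 108 protein-coding plastid genes, close to the lengths of the 2 spans. It holds 1 of the 35833 identifiers of the whole table and none of these 157, so no organelle row could be given a gene name or a role.

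What the organelle genomes encode can be given from that RefSeq table, without assigning it to single rows. Of the 53 mitochondrial genes, 9 were nad genes of respiratory complex I, 1 was cob of complex III, 3 were cox genes of complex IV, 3 were atp genes of ATP synthase, 4 were ccm genes of cytochrome c maturation and 10 were genes of ribosomal proteins. Of the 108 plastid genes, 15 were psb genes of photosystem II, 4 were psa genes of photosystem I, 6 were pet genes of electron transport, 6 were atp genes of the plastid ATP synthase and 12 were ndh genes of the plastid NADH dehydrogenase-like complex. A further 4 were rpo genes of the plastid RNA polymerase, 26 were genes of ribosomal proteins and 1 was rbcL, the large subunit of rubisco. Another 22 mitochondrial and 27 plastid genes were unnamed, with only a locus tag or an orf label. In that list 6 plastid symbols stood more than once, and the chloroplast genome is known to carry an inverted repeat whose genes occur in both copies. No row of the table could be matched to any of these genes, and every row under the BAC and CAA prefixes was listed at 0.

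The BAC rows held 600 values, and 0 of them were above 0. In PA roots at 6 h, mock roots at 6 h, PA roots at 24 h and mock roots at 24 h alike, 0 reads were listed on the 50 BAC rows in replicate 1, in replicate 2 and in replicate 3. The CAA rows held 1284 values, and 0 of them were above 0. Their 107 rows likewise had 0 reads in each of the 3 libraries of each of the 4 groups. The groups could not be ordered, and no member of either prefix differed from any other member.

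**Figure D1:**
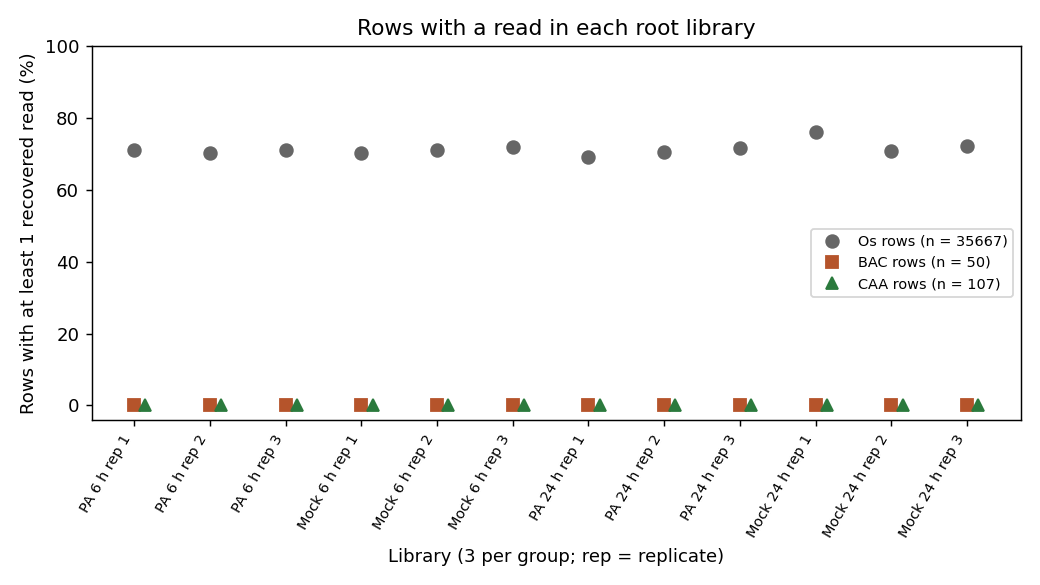
Percent of rows with at least 1 recovered read (y axis) in each of the 12 libraries (x axis), for Os, BAC and CAA rows. The Os rows lie between 69.3% and 76.2% in every library, while the BAC and CAA rows lie at 0.

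The depth behind these zeros was 6302056 to 10254382 recovered reads in 11 libraries and 20301774 in replicate 1 of the mock group at 24 h. A count of 0 for the sum over a prefix was taken to allow an expected count of up to 3 reads. This corresponds to 0.476 RPM (reads per 1000000 recovered reads of the library) in the shallowest library and 0.148 RPM in the deepest. Pooled over the 3 libraries of a group, this limit was 0.124 RPM in PA and 0.127 in mock roots at 6 h, and 0.118 in PA and 0.0779 in mock roots at 24 h. Over all 12 libraries, with 111807961 reads, it was 0.0268 RPM. These limits cover counting error only. They apply only if the organelle rows could receive reads in the counting, which is unknown. The sources used here name neither the counting tool nor the genome build and annotation. The limits therefore do not bound the amount of organelle RNA in the roots. The zeros are therefore reported as listed values, and whether they reflect missing expression was not tested.

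The zeros of the organelle rows can be set against the rest of the table as a description. Of the 35667 Os rows, 4190 or 11.7% were at 0 in all 12 libraries, 59.7% had a read in all 12, and the remainder had a read in some. The share of Os rows at 0 in all libraries ran from 9.69% on chromosome 2 to 14.4% on chromosome 11, going by the chromosome number in the identifier. In the order of the table the longest unbroken run of Os rows at 0 held 19 rows, from Os09g0404300 to Os09g0406500, and the next longest held 15. The 50 BAC rows and 107 CAA rows were picked by prefix, and whether they stand together in the table was not examined. Their number therefore cannot be compared with the Os runs. The organelle rows made up 3.60% of the 4356 rows at 0. The table also held 9 rows with an EPl identifier, and these were at 0 in all libraries too. Every one of the 31477 rows with a read in any library thus had an Os identifier, and all 166 rows with another kind of identifier had none.

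**Figure D2:**
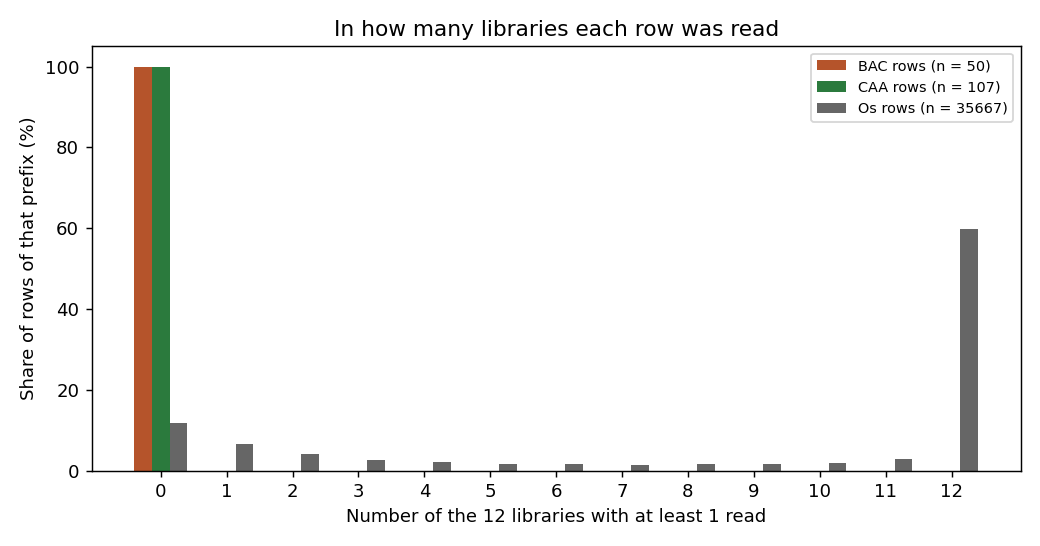
Share of the BAC, CAA and Os rows in percent (y axis) by the number of the 12 libraries in which a row had at least 1 read (x axis). All BAC and CAA rows stand at 0 libraries, where 11.7% of the Os rows stand, and 59.7% of the Os rows stand at 12.

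The treatment comparisons asked whether a foliar spray of PA changed root transcripts at each time, and whether the 2 effects differed. A row entered the test if its normalised count averaged 10 or more across the 12 libraries, and 0 of 50 BAC rows and 0 of 107 CAA rows reached it. Of the 19207 rows tested by limma, 1.66% passed an adjusted p of 0.05 for PA against mock at 6 h, 0.115% at 24 h and 0.552% for the effect at 24 h minus that at 6 h. None of these calls was an organelle row, which follows from the zeros. The comparison of 24 h with 6 h called 14.0% of 19206 rows in PA roots and 17.3% in mock roots, again with 0 organelle rows tested. No fold change is given for any BAC or CAA row, since both sides of each comparison were at 0. The edgeR and DESeq2 runs on recovered reads used the same filter and so also tested 0 organelle rows.

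Nuclear genes whose proteins work in the organelles had reads in the same libraries. Their lists were written from recalled loci that no file could check, so a list's name is its intended content. The mitochondrial protein list (alternative oxidase, ATP synthase beta, manganese superoxide dismutase, ADP/ATP carrier and cytochrome c) had 7 of 8 members with reads in all 12 libraries. Its summed level was 1152 ± 79.6 RPM in PA and 1115 ± 55.3 in mock roots at 6 h, and 1104 ± 42.7 in PA and 1196 ± 143 in mock roots at 24 h (SD, n = 3 each). The 50 BAC rows beside it summed to 0 in every one of these libraries.

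The leaf and photosynthesis list, meant to mark shoot tissue, had 21 of 21 members with reads in all libraries. Whether its reads came from shoot tissue was not tested. In PA roots at 6 h its summed level was 176, 141 and 108 RPM, against 183, 397 and 301 in mock roots at 6 h. The PA libraries lay below the mock libraries there, and the CAA rows were at 0 in both. At 24 h it was 114, 103 and 311 RPM in PA roots, against 113, 135 and 290 in mock roots, and the groups overlapped. The mean of mock roots at 6 h, 294 RPM, was the highest of the 4 groups. The others were 142 in PA roots at 6 h, 176 in PA and 180 in mock roots at 24 h. Whether PA lowered the list or mock roots at 6 h stood high was not tested. In bulk roots, fewer cells of a type and less RNA per cell cannot be told apart. The plastid sigma factor list, whose proteins direct the plastid RNA polymerase to its promoters, was read at 2.22 to 5.43 RPM in sum, and 1 of its 4 members was tested.

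**Figure D3:**
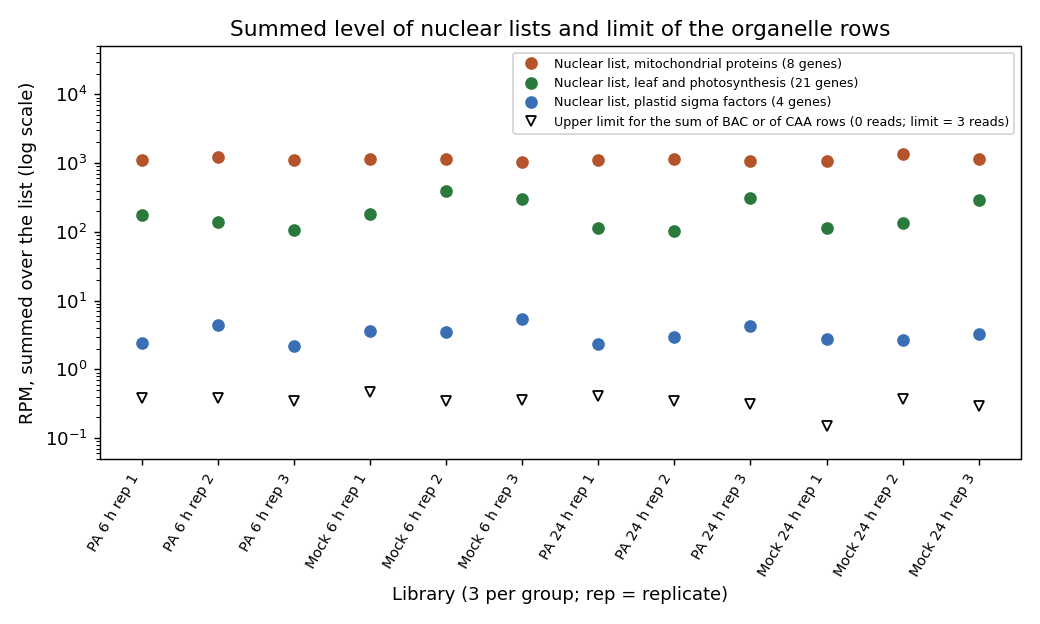
Summed RPM on a log axis (y axis) in each library (x axis) for the 3 lists of nuclear genes, with the upper limit that 0 reads allow for the BAC or the CAA rows as open triangles. The limits lie between 0.148 and 0.476 RPM, below the sigma factor list at 2.22 to 5.43.

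None of the members of these 3 lists passed limma for PA against mock at 6 h or at 24 h, or for the difference between the 2 effects. Of all rows tested, 1.66%, 0.115% and 0.552% passed in these comparisons. At such shares, 0 calls among so few genes set no list apart. For PA against mock at 6 h, 20 of 21 leaf and photosynthesis genes had a negative log2 fold change, with a median of -0.97 against 0.01 over all rows tested. An unadjusted p under 0.05 was found for 3 of the 21 genes, or 14.3%, against 14.8% of all rows tested. At 24 h 17 of 21 were negative, with a median of -0.12, and 0 had an unadjusted p under 0.05, against 6.11% of all rows tested. That median has no stable sign: it was 0.01, 0.17 and -0.70 without PA replicates 1, 2 and 3 of 24 h, -0.41, -0.28 and 0.20 without mock replicates 1, 2 and 3 of 24 h, 0.01 by edgeR, -0.04 by DESeq2, -0.33 with quality weights and 0.15 with the source-name block. The 7 tested mitochondrial protein genes had medians of 0.05 at 6 h and -0.08 at 24 h, and 0 had an unadjusted p under 0.05 at either time. Both medians changed sign with 1 library left out, to -0.02 without PA replicate 2 of 6 h and to 0.06 without mock replicate 2 of 24 h. The difference between the effects had 0 members of any list at an unadjusted p under 0.05. For that difference 20 of 21 leaf and photosynthesis genes were positive, with a median of 0.73. By edgeR and DESeq2 0 members of the lists passed in these 3 comparisons. Over all rows tested, edgeR called 308 rows at 6 h, 26 at 24 h and 89 for the difference. DESeq2 called 680, 53 and 331 in the same order. As the CAA and BAC rows were at 0 in all groups, whether organelle transcripts moved with these nuclear genes was not tested.

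Between the times, 0 members passed in mock roots by limma, where 17.3% of all rows tested did, and edgeR called 0 and DESeq2 1. An unadjusted p under 0.05 was found for 2 of 21 leaf and photosynthesis genes and 3 of 7 mitochondrial protein genes, against 28.9% of all rows tested. From 6 h to 24 h in mock roots, 18 of 21 leaf and photosynthesis genes had a negative log2 fold change, with a median of -0.88. For PA roots 7 of 21 were negative, with a median of 0.05. In PA roots 1 of 21 leaf and photosynthesis genes, or 4.76%, and 1 of 7 mitochondrial protein genes, or 14.3%, passed. These shares lie below and near the 14.0% of all rows tested, so they set neither list apart, and the values of the 2 genes are given as a description. The first, Os11g0242800, had 16.7, 22.1 and 34.0 RPM at 24 h, against 13.4, 15.3 and 11.7 at 6 h. Its log2 fold change was 0.84 ± 0.24 (SE), at an adjusted p of 0.0365 in limma. In mock roots it moved the same way without passing, with a log2 fold change of 0.44 ± 0.24 (SE). The difference between its PA effects at 24 h and 6 h had an unadjusted p of 0.27 in limma. The second, Os05g0323900, had 71.3, 71.7 and 83.3 RPM at 24 h, against 97.9, 98.3 and 94.1 at 6 h. Its log2 fold change was -0.30 ± 0.09 (SE), at an adjusted p of 0.0259 in limma. In mock roots it also moved the same way without passing, with a log2 fold change of -0.15 ± 0.09 (SE). For this gene the difference between the PA effects had an unadjusted p of 0.22 in limma. Neither gene was thus shown to change in PA roots alone. Each count of 1 became 0 without any one of the 3 PA libraries of 6 h, and with a replicate block by the source-name numbers. The first also became 0 without replicate 2 or 3 of PA at 24 h, mock replicate 3 of 6 h or mock replicate 1 of 24 h, and the second without replicate 1 or 2 of PA at 24 h. The organelle rows were at 0 in all of the libraries compared.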

How the data were processed

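A single table was deposited by the authors, holding a normalised signal for each row. Per the submitters' processing notes, DESeq2, STAR 2.6.1d, Trimmomatic 0.38 and FastQC 0.11.8 were used, and no counting tool, genome build or annotation is named there. Each column of the deposited signal was found to be a library's read counts over 1 factor. Whole reads were recovered, since 99.985% or more of the non-zero values fell within 0.01 of a whole read. The factors matched median-of-ratios factors obtained for each time on its own. Comparisons within a time kept the deposited scale, and comparisons of times used recovered reads scaled over all 12 libraries.

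The titles gave groups and replicate numbers, and the source names of 3 PA samples carry other numbers. Group means were fitted to log2(value + 2) over all 4 groups with limma 3.58.1 (R 4.3.3; trend and robust options), and the Benjamini-Hochberg adjustment ran over all rows tested. As alternatives, recovered reads went into edgeR 4.0.16 and DESeq2 1.42.0. On counts simulated for PA against mock at 6 h over 19048 rows, the fit recovered 71 of 100 rows changed 2-fold and 92 of 100 changed 4-fold, with 9 false calls. Each library pools 4 plants, and no label says whether replicates were grown or harvested apart, so p reflects only how far these samples vary. Replicates differed beyond sampling noise, at 5.14 to 26.4 chi-square units per degree of freedom, and none was treated as a repeat. Deviations of same-numbered PA and mock libraries correlated at 0.305, 0.288 and 0.126 at 6 h, and at -0.187, 0.0505 and 0.0212 at 24 h. Libraries with different numbers correlated at -0.295 to 0.0341 at 6 h and at -0.163 to 0.208 at 24 h. The title numbers were taken to pair libraries at 6 h but not at 24 h. The reported limma fit used no pairing at either time, and a replicate block was run only as an alternative. The rows and the nuclear gene lists were chosen with earlier results of these data known. The rule for named genes (the 5 highest rows of each prefix, called rows and extreme rows) singled out no organelle row, since all tied at 0. The 2 Os identifiers with values were named after those values were seen.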

Additional observations from a re-analysis of the deposited data

How the results depend on the processing

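Since each BAC and CAA value was 0, no setting could give another number of organelle rows tested or called, or another percent of reads, and the alternatives say nothing about the stability of these zeros. The percent of reads without the row with the most reads was not run, because all rows tied at 0. Of 372 runs for the nuclear lists, 343 gave a count within 1.5 times the reported one. Most reported counts were 0, and 0 beside 0 was scored as within that range, so this share does not measure stability. For mock roots at 24 h against 6 h, where 0 members passed, the leaf and photosynthesis count was 1 on the deposited scale, 3 with the replicate block by title numbers, 3 with only the groups compared and 0 to 3 with libraries left out in turn. The mitochondrial protein count was 4 on the deposited scale, 1 by DESeq2, 1 with the title block, 2 with quality weights and 0 to 2 with libraries left out. For PA roots at 24 h against 6 h, where 1 member of each list passed, the leaf and photosynthesis count was 0 when scaled by total reads, 0 with the source-name block and 0 to 1 with libraries left out. The mitochondrial protein count was 2 on the deposited scale, 2 with the title block, 0 with the source-name block and 0 to 1 with libraries left out. The deposited scale treats each time separately. On it the median log2 fold changes of mock roots at 24 h against 6 h were higher than in the reported fit. They were -0.59 against -0.88 for the leaf and photosynthesis list and 0.33 against 0.03 for the mitochondrial protein list. Why the counts changed with the other settings was not tested. With the replicate block, 0 members of any list passed in the comparisons of PA with mock.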
